A study of Mus musculus with 17 samples.

Results

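The 8 genes described here encode the alpha subunits of the neuronal voltage-gated calcium channels, Cacna1a, Cacna1b, Cacna1c, Cacna1d, Cacna1e, Cacna1g, Cacna1h and Cacna1i. They were chosen by name, out of 38355 gene identifiers counted in each of 17 hippocampal RNA-seq libraries. All libraries came from the hand-dissected hippocampus of untreated wild type C57BL/6J mice. The polyA RNA of 3-month-old mice (3M, 5 libraries) and 24-month-old mice (24M, 6 libraries) was sequenced single-end. That of 3M mice (3 libraries) and 29-month-old mice (29M, 3 libraries) was sequenced paired-end. The labels do not say whether the single-end and paired-end 3M libraries came from different mice. The 29M mice had been kept on from the age of 24 months, and aged mice were compared only with 3M mice sequenced in the same way. Library type and age therefore vary together, and an age of 24 months and one of 29 months cannot be told apart from single-end and paired-end sequencing. Each library is labelled as a sample of its own, and the p-values measure the spread between these samples.

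The alpha subunit of a voltage-gated calcium channel forms the pore and senses the membrane voltage, while the beta, alpha2delta and gamma families hold auxiliary subunits and related proteins. Cav1 channels carry L-type current in cell bodies and dendrites and couple activity to gene expression. Cav2 channels carry P/Q-, N- and R-type current, and the P/Q and N types trigger transmitter release at most central synapses. Cav3 channels open near the resting potential, carry T-type current and support burst firing. L-type current of hippocampal pyramidal neurons has long been studied for its part in the slow afterhyperpolarization of aged rodents. Current and protein were not measured here.

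The libraries held 9213474 to 28438296 counts on genes. The 24M replicates 1 and 4 differed by less than the sampling noise (mean variance ratio 0.406, where counting noise alone gives about 1 and the next lowest pair gave 1.23). Their rounded mean was counted as 1 sample, which left 5 samples at 24M and 16 in all. Markers of dentate granule neurons, CA1 neurons and CA3 and CA2 neurons were counted in every library. The 3M single-end replicate 4 stood apart, with 722 CPM (TMM-scaled counts, relative to library size) summed over 12 striatal markers against 239 to 297 CPM in the other samples of both single-end groups. The 8 neocortical markers summed to 233 to 370 CPM at 3M and 192 to 211 CPM at 24M in the single-end samples, so these groups did not overlap. In the paired-end samples the same sum was 194 to 213 CPM at 3M and 184 to 206 CPM at 29M. Fewer cells of a type and less RNA per cell cannot be told apart in such tissue samples.

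None of the 8 alpha subunit genes was called at either age, where a call needed an adjusted p no higher than 0.05 over all genes tested and a log2 fold change of 0.5 or more in either direction. All 8 had enough counts to be tested in both comparisons. The same rule called 310 of 15683 genes at 24M (1.98%) and 219 of 15097 at 29M (1.45%). An adjusted p of at most 0.05 at any fold change was reached by 0 of the 8 genes at either age, against 5.58% of the genes tested at 24M and 2.99% at 29M. An unadjusted p under 0.05 was found for 3 of 8 at 24M, all lower (Cacna1a, Cacna1g and Cacna1i), against 26.1% of all genes (12.1% lower). At 29M it was found for 1 of 8, Cacna1d, which was higher, against 17.3% of all genes (9.86% higher). The aged and 3M samples did not overlap for 0 of the 8 at 24M and 1 of the 8 at 29M, against 6.57% and 22.4% of all genes. With DESeq2 in place of edgeR, 0 of the 8 were called at either age.

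The size of each change was described by an interval for that gene alone, from the edgeR fit. All 8 of the 95% intervals of the log2 fold change lay between -0.5 and 0.5 in both comparisons, as did those of 70.3% of the genes tested at 24M and 73.7% at 29M. The interval bounds of the 8 genes ran from -0.47 to 0.21 at 24M and from -0.18 to 0.28 at 29M. Of the 8 log2 fold changes, 6 were below 0 at 24M (median -0.056, against -0.0032 over all genes tested) and 3 at 29M (median 0.0086, against -0.0021). Of all genes tested, 50.8% were below 0 at 24M and 50.6% at 29M.

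**Figure D1:**
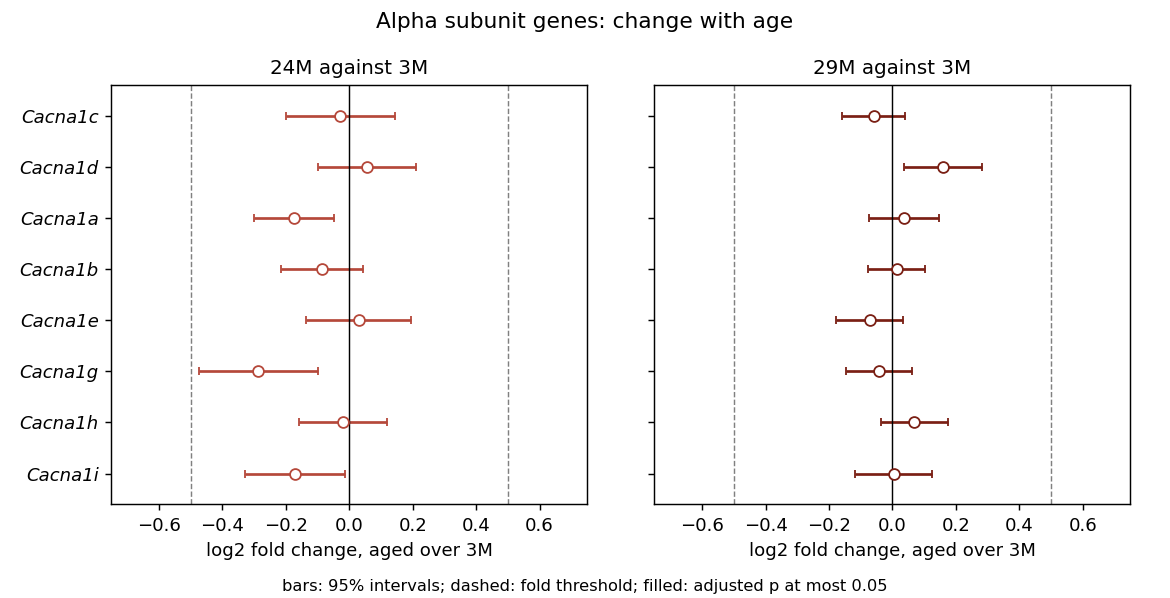
Log2 fold change of each alpha subunit gene, 24M against 3M in single-end samples (left) and 29M against 3M in paired-end samples (right). Points are estimates of edgeR's quasi-likelihood test, horizontal bars their 95% intervals, dashed lines the fold threshold of 0.5, and open points an adjusted p above 0.05; all 16 points are open and all 16 bars end inside the dashed lines.

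Per kilobase of exon, Cav2 transcripts were the most abundant and Cav1 transcripts the least. Cacna1e, the R-type gene, had the highest mean in each of the 4 groups, from 17.6 ± 1.75 CPM per kb (SD, n = 5, 3M single-end) to 18.9 ± 1.22 CPM per kb (SD, n = 3, 3M paired-end). Cacna1b (N-type) lay between 15.4 and 16.4 CPM per kb in the group means and Cacna1a (P/Q-type) between 14.1 and 16.8. The T-type genes followed, with Cacna1h at 12.3 to 14.2, Cacna1i at 9.48 to 10.7 and Cacna1g at 5.84 to 7.11 CPM per kb. The L-type genes were lowest, with Cacna1d at 4.37 to 5.11 and Cacna1c at 3.88 to 4.22 CPM per kb.

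This order held in the 24M, 3M paired-end and 29M groups, and in the 3M single-end group Cacna1a stood above Cacna1b. Many neighbours in it did not separate. Cacna1e overlapped with the next gene in the range of its samples in both single-end groups, as did Cacna1a with Cacna1b and Cacna1d with Cacna1c. Cacna1a and Cacna1h overlapped in the 24M, 3M paired-end and 29M groups, Cacna1h and Cacna1i in the 3M single-end group, and Cacna1g and Cacna1d at 24M. Within a sample the order was firmer, since Cacna1b was above Cacna1h, Cacna1h above Cacna1i, Cacna1i above Cacna1g and Cacna1g above Cacna1d in all 16 samples. Set among the genes tested, by the mean of the 3M single-end group, Cacna1e stood above 82.0% of them and Cacna1c above 45.5%.

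The order depends on the length taken for each gene. The exon union of Cacna1e spans 25228 bases and its longest annotated transcript 14921 bases, and for Cacna1c these are 21191 and 13162 bases. With the longest transcript as length, 4 of the 8 genes changed rank. Cacna1a then stood above Cacna1b (22.0 against 16.4 CPM per kb over the 16 samples) and Cacna1c above Cacna1d (6.44 against 6.02), while Cacna1e stayed first with 30.4.

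**Figure D2:**
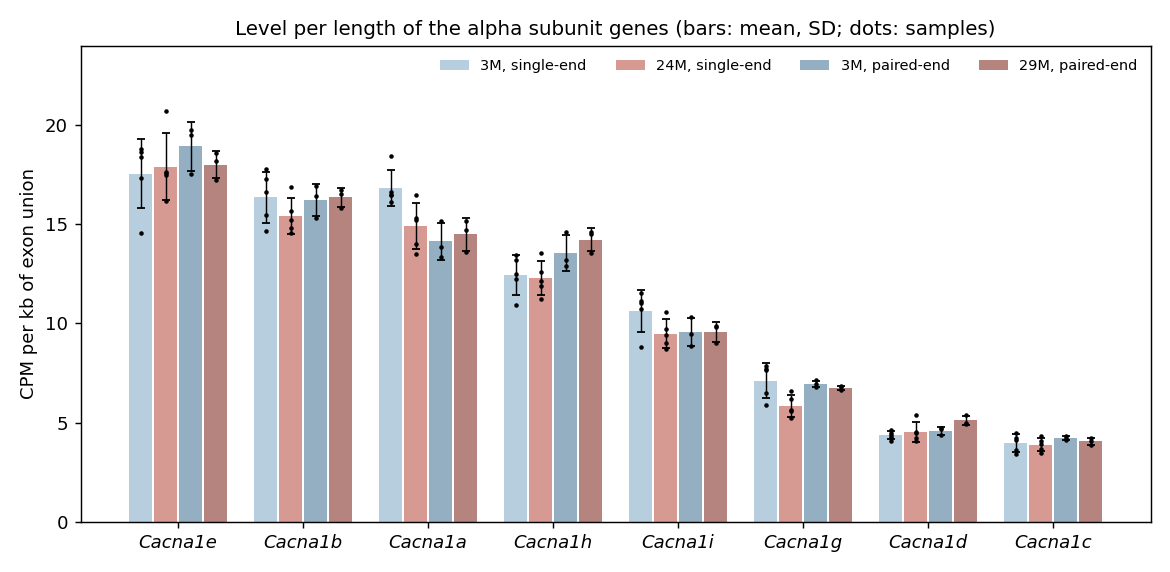
Mean TMM-scaled CPM per kb of exon union for the 8 genes in the 4 groups, with SD as error bars and the single samples as dots; the axis is linear and starts at 0. Cacna1e was highest in all 4 groups and Cacna1c lowest. The bars of Cacna1b and Cacna1a lie close together in the single-end groups, and those of Cacna1a and Cacna1h in the paired-end groups.

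The sum of the 8 levels was divided among the classes in similar shares at each age. Cav2 genes held 56.8 ± 1.37% (SD, n = 5) at 3M and 57.2 ± 0.917% (n = 5) at 24M in the single-end samples, and 55.9 ± 0.321% at 3M and 55.2 ± 0.615% at 29M (n = 3 each) in the paired-end samples. The Cav1 share was 9.20% to 9.54% in the 5 single-end 3M samples and 9.65% to 10.5% in the 5 samples at 24M, so these ranges did not overlap. In the paired-end samples it was 9.73% to 10.2% at 3M and 10.2% to 10.6% at 29M. In the single-end group means the summed Cav1 level was 8.335 CPM per kb at 3M and 8.425 at 24M. The Cav2 sum was 50.74 at 3M and 48.25 at 24M, and the Cav3 sum 30.21 and 27.61. In the paired-end group means the Cav1 sum was 8.80 at 3M and 9.159 at 29M. A share can move with any gene of the sum, and these are descriptions without a test.

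Cacna1d, one of the L-type pore genes, was the single member whose samples separated by age, and they did so at 29M. The gene lies on the minus strand of chromosome 14 (chr14:30039939-30491455, GRCm38), and 4.67% of its exon bases overlap Chdh on the other strand. In the paired-end 3M samples it was counted at 59.1, 55.04 and 59.4 CPM, and in the 29M samples at 68.1, 62.5 and 63.0 CPM. All 3 samples at 29M lay higher than all 3 at 3M, a separation in that direction that 11.9% of all genes tested showed. On the log2 scale the change was 0.16 (SE 0.057, 95% interval 0.036 to 0.28), or 11.6% higher, with a Benjamini-Hochberg adjusted p = 0.170 in the quasi-likelihood test of edgeR. Leaving out 1 library at a time gave log2 fold changes of 0.12 to 0.18, and the lowest adjusted p under any alternative was 0.149.

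At 24M Cacna1d was counted at 58.6, 56.5, 54.2, 51.5 and 55.2 CPM in the 3M samples and at 56.6, 51.7, 68.0, 53.3 and 57.1 CPM in the 24M samples. These groups overlapped, and 1 sample, 24M replicate 3, lay above all others. The log2 fold change of Cacna1d was 0.057 (SE 0.072, adjusted p = 0.647), and -0.023 without that replicate. The same sample held the highest 24M level of Cacna1a, Cacna1b, Cacna1c, Cacna1e and Cacna1h and the lowest of Cacna1i. Of its reads 12.7% fell on no feature, against 9.79% in the lowest 24M library, and the part of this in the levels was not tested.

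A count per gene adds up transcripts from every start of that gene. RefSeq promoter windows (300 bases around a start, GRCm38.p6) were found for 5 of the 8 genes, with 8 windows in all. They are shown for Cacna1d, whose samples separated at 29M, as did those of 11.9% of all genes tested in that direction. Those of Cacna1e and Cacna1b, both Cav2 genes, are also shown. The windows are written in lower case with matches to GGGCGG (the GC box, either strand, overlapping matches marked as 1 run) in capitals. Cacna1d has one start at chr14:30491107-30491406 (minus strand, 40.3% GC) and another at chr14:30353437-30353736 (minus strand, 87.3% GC).
Cacna1d, first start: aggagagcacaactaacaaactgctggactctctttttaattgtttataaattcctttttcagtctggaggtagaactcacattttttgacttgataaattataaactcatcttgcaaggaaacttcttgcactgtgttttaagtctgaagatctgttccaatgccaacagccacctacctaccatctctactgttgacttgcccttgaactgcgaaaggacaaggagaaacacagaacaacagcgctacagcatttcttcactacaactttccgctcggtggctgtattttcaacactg
Cacna1d, second start: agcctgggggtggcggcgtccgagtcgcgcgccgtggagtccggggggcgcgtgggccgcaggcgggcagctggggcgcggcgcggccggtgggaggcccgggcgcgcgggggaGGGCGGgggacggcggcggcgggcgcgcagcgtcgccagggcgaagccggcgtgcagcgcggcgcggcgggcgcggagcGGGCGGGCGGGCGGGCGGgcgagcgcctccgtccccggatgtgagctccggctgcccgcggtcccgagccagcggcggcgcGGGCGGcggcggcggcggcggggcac
Cacna1e: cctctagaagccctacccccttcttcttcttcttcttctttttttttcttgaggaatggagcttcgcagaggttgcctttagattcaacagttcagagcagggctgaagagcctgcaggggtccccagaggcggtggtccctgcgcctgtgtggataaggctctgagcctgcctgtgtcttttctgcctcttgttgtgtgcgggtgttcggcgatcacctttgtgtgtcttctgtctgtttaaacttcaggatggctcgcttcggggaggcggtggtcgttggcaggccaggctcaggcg
Cacna1b: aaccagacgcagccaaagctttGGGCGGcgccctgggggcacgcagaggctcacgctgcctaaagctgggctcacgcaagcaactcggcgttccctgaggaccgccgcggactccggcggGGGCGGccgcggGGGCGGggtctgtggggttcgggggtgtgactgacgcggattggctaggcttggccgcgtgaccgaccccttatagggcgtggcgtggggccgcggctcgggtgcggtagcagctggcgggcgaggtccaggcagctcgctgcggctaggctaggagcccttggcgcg
The window of Cacna1e is at chr1:154725871-154726170 and that of Cacna1b at chr2:24763103-24763402, both on the minus strand. GGGCGG was found 6 times at the second start of Cacna1d and 3 times at Cacna1b, counting overlapping matches, and not at the first start of Cacna1d or at Cacna1e. Of 32851 windows of this length in the table, 35.7% hold it. The 2 starts of Cacna1d held 4 and 63 CG dinucleotides, against a median of 7 over all windows. The deposited counts do not separate the starts.

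Cacna1c, the other L-type pore gene and the main one of brain and heart, lies on the minus strand of chromosome 6 (chr6:118587240-119196418). It ranged from 72.3 to 94.6 CPM in the 3M and from 73.1 to 91.5 CPM in the 24M single-end samples. In the paired-end samples it ranged from 87.3 to 91.8 CPM at 3M and from 82.0 to 89.4 CPM at 29M. Both pairs of groups overlapped, with log2 fold changes of -0.028 (95% interval -0.20 to 0.14, adjusted p = 0.858) at 24M and -0.058 (-0.16 to 0.041, adjusted p = 0.563) at 29M. The remaining L-type genes are those of skeletal muscle and retina. Cacna1s was found at 8 to 26 counts per sample, of which an unknown part may belong to Gm37759, an antisense gene that overlaps 20.0% of its exon bases, and Cacna1f at 0 to 16 counts. Cacna1f was not tested at either age, and Cacna1s only at 24M (log2 fold change -0.42, 95% interval -1.04 to 0.19, adjusted p = 0.369).

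Among the Cav2 genes, Cacna1a had the lowest p at 24M. It encodes the P/Q-type pore (chr8:84388440-84640246, plus strand) and overlaps the antisense gene Gm16183 over 3.81% of its exon bases. It was counted at 211, 184, 190, 188 and 188 CPM in the 3M single-end samples and at 160, 154, 188, 175 and 174 CPM in the 24M samples. The groups overlapped through 24M replicate 3, which lay at the level of the 3M samples. Cacna1a had a log2 fold change of -0.17 (SE 0.059, 95% interval -0.30 to -0.048, adjusted p = 0.0873). The adjusted p was 0.0423 with the 6 libraries at 24M kept apart and 0.0445 with all 4 groups in 1 fit, and it was above 0.05 under the other 21 alternatives. In the paired-end samples Cacna1a was counted at 173, 158 and 153 CPM at 3M and at 173, 155 and 168 CPM at 29M, a difference of 0.036 on the log2 scale (95% interval -0.075 to 0.15, adjusted p = 0.777).

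Cacna1b and Cacna1e, the genes of the N-type and R-type pores, had estimates closer to 0. Cacna1b (chr2:24603887-24763152, minus strand) differed by -0.085 on the log2 scale at 24M (95% interval -0.21 to 0.044, adjusted p = 0.391) and of 0.013 at 29M (-0.077 to 0.10, adjusted p = 0.908). Cacna1e (chr1:154390731-154884501, minus strand) was counted at 464, 438, 474, 368 and 470 CPM in the 3M single-end samples and at 443, 408, 523, 444 and 441 CPM at 24M. Its lowest sample was 3M replicate 4, the one with the high striatal markers, and its highest 24M replicate 3. Its log2 fold change was 0.030 (95% interval -0.14 to 0.19, adjusted p = 0.841), and it turned to -0.030 without 3M replicate 4 and to -0.037 without 24M replicate 3. In the paired-end samples Cacna1e was counted at 492, 442 and 498 CPM at 3M and at 469, 459 and 435 CPM at 29M (log2 fold change -0.072, 95% interval -0.18 to 0.034, adjusted p = 0.491).

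Cacna1g, a T-type pore gene, had the lowest p of the 8 at 24M. It lies on the minus strand of chromosome 11 (chr11:94408391-94474198). It was counted at 78.0, 79.7, 77.5, 65.8 and 59.5 CPM in the 3M single-end samples and at 56.9, 53.1, 62.9, 56.4 and 66.7 CPM in the 24M samples. At 3M, 3 samples lay above all 24M samples, and replicates 4 and 5 lay within the 24M range. Cacna1g had a log2 fold change of -0.29 (SE 0.087, 95% interval -0.47 to -0.099, adjusted p = 0.0661), and 8.50% of the genes tested had an unadjusted p as small or smaller.

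The adjusted p of Cacna1g at 24M lay on both sides of 0.05 over the alternatives. It was at most 0.05 under 6 of 23, among them DESeq2 (0.0300), the fit of all 4 groups (0.0184) and the fit without 3M replicate 5 (log2 fold change -0.36, adjusted p = 0.0105). It was 0.0739 without 3M replicate 4 (log2 fold change -0.32) and 0.141 with the replicate number as a block (-0.35). In no alternative did the log2 fold change reach -0.5. In the paired-end samples Cacna1g was counted at 72.3, 69.1 and 70.5 CPM at 3M and at 69.3, 68.7 and 67.5 CPM at 29M, and its change was -0.044 (95% interval -0.15 to 0.060, adjusted p = 0.697).

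Cacna1i and Cacna1h are the other T-type pore genes. Cacna1i (chr15:80287238-80398279, plus strand) was counted at 114, 109, 110, 106 and 87.1 CPM in the 3M single-end samples and at 92.7, 88.9, 85.7, 96.0 and 104 CPM at 24M. The single low 3M sample, replicate 5, lay inside the 24M range and the other 4 above it. This gave a log2 fold change of -0.17 (SE 0.073, 95% interval -0.33 to -0.012, adjusted p = 0.163), and -0.24 with adjusted p = 0.0177 without that replicate. At 29M it was 0.0039 (95% interval -0.12 to 0.13, adjusted p = 0.982), with 87.5 to 102 CPM at 3M and 88.7 to 97.4 CPM at 29M.

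Cacna1h (chr17:25374285-25433783, minus strand) shares 1.62% of its exon bases with Tpsg1 on the other strand. It ranged from 107 to 131 CPM at 3M and from 110 to 132 CPM at 24M in the single-end samples, and from 126 to 143 CPM at 3M and 132 to 142 CPM at 29M in the paired-end samples. Both pairs of groups overlapped. Its log2 fold change was -0.019 at 24M (adjusted p = 0.884) and 0.069 at 29M (95% interval -0.037 to 0.17, adjusted p = 0.513).

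**Figure D3:**
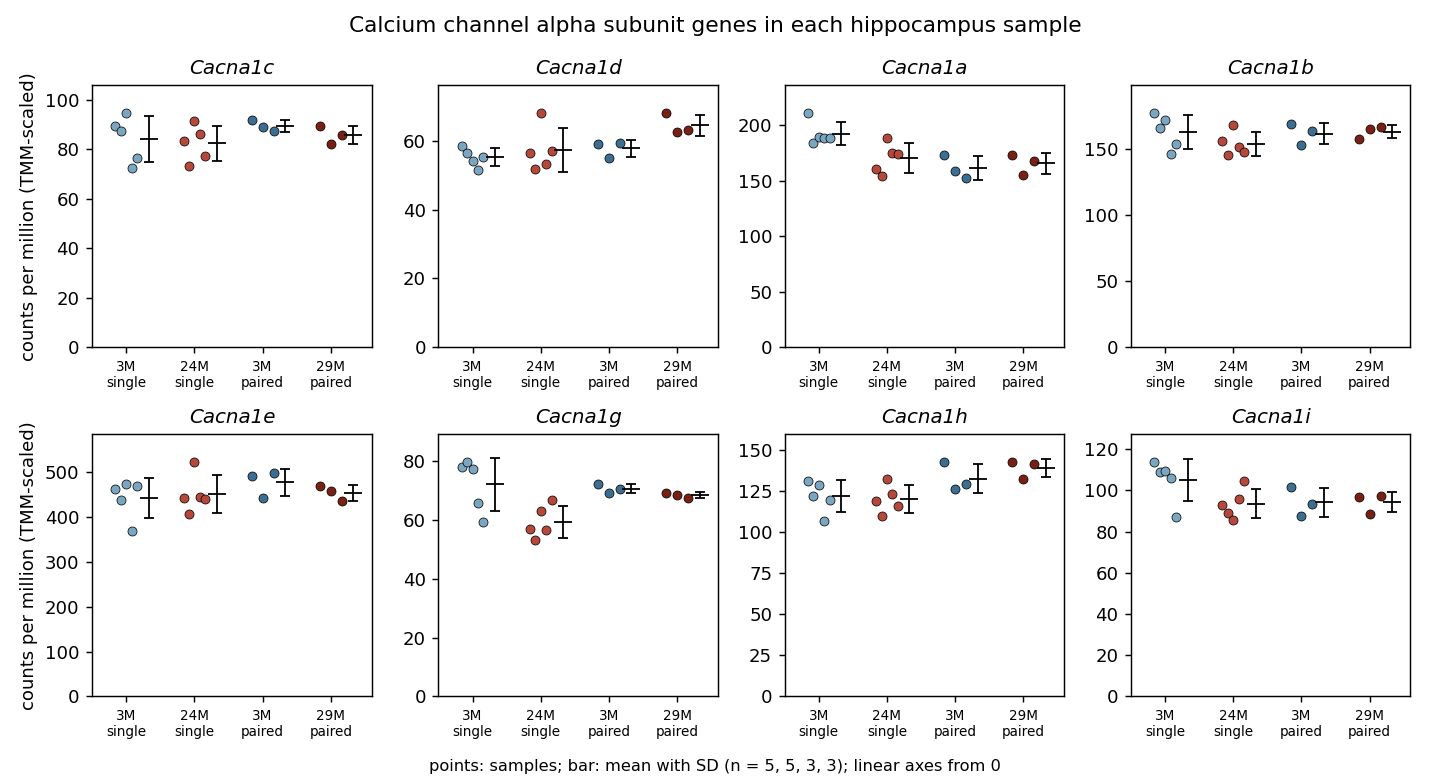
TMM-scaled CPM of the 8 genes in every sample of the 4 groups, on linear axes that start at 0; points are samples and the bar beside them the mean with its SD (n = 5, 5, 3 and 3). For Cacna1g and Cacna1i most 3M single-end samples lie above the 24M samples with 1 or 2 among them, and for Cacna1d all 3 samples at 29M lie above the 3 paired-end samples at 3M.

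The 24M values of the lower genes moved under joint offsets for GC content and exon length, and offsets for GC content alone were not run. The longest transcripts of Cacna1a, Cacna1g, Cacna1h and Cacna1i have a GC content of 58.1% to 60.0%, and those of the other 4 genes 48.3% to 52.9%. With sample-specific offsets for GC content and length, the log2 fold change at 24M was -0.061 for Cacna1a, -0.052 for Cacna1i and -0.18 for Cacna1g, with adjusted p of 0.573, 0.610 and 0.210. That of Cacna1h turned to 0.11 (adjusted p = 0.393), and that of Cacna1b, whose GC content is 52.9%, moved from -0.085 to -0.026. At 29M the offsets left Cacna1d at 0.15 (adjusted p = 0.152). The summed neocortical markers given above also separated the single-end ages, and their part in the Cacna1a, Cacna1g and Cacna1i values was not tested.

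**Figure D4:**
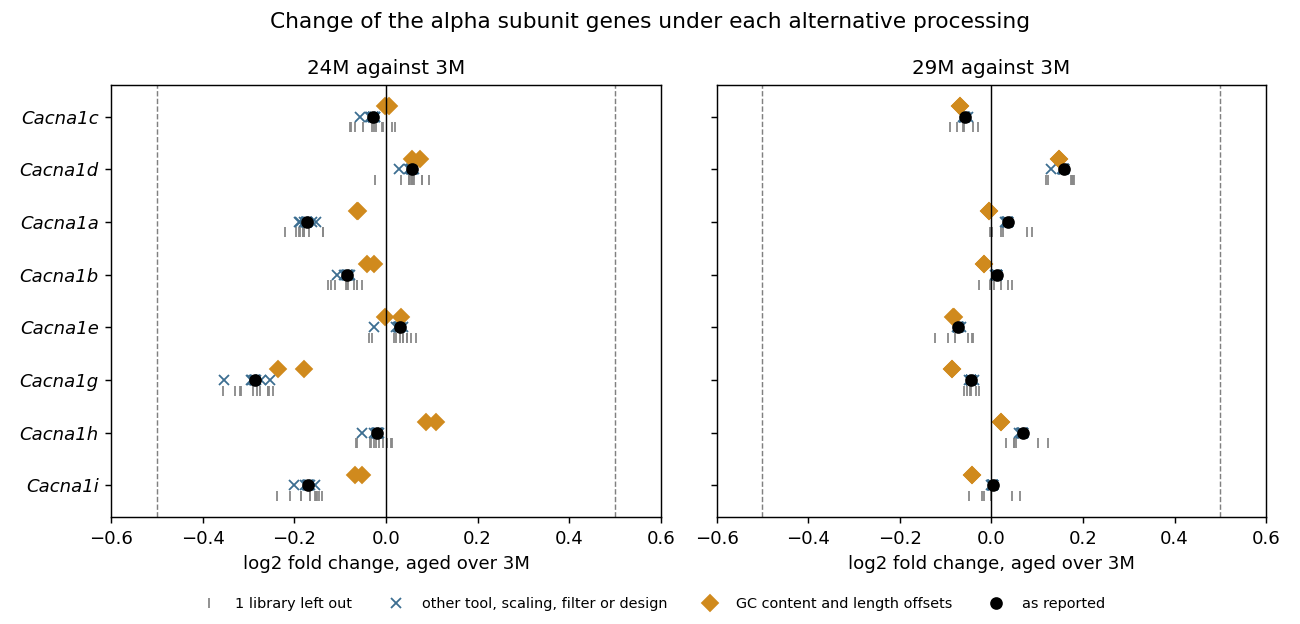
Log2 fold changes of the 8 genes at 24M (left) and 29M (right) as reported (black) and under each alternative: 1 library left out (ticks), another tool, scaling, filter or design (crosses), and offsets for GC content and length (diamonds). The diamonds of Cacna1a, Cacna1b, Cacna1g, Cacna1h and Cacna1i at 24M lie to the right of all other marks, and no mark reaches the dashed lines at an absolute value of 0.5.

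The change at 29M was set against the change at 24M in 1 fit of all 4 groups. The difference was 0.21 for Cacna1a (95% interval 0.013 to 0.40, adjusted p = 0.458), 0.24 for Cacna1g (-0.020 to 0.50, adjusted p = 0.505) and 0.17 for Cacna1i (-0.067 to 0.41, adjusted p = 0.608) on the log2 scale. For the other 5 genes it ranged from -0.10 to 0.098. In the quasi-likelihood test of edgeR none of the 8 differences had an adjusted p up to 0.05, and none of 16055 genes did. An unadjusted p under 0.05 was found for 10.4% of these genes. DESeq2 called 1 gene for the difference, a count that also needed the fold threshold. With GC and length offsets the differences of Cacna1a, Cacna1g and Cacna1i were 0.055, 0.093 and 0.010.

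Some pairs of the 8 genes varied together from sample to sample, and others did not. Centred within library type, all 8 lay above the mean in 3M single-end replicate 1 (by 0.15 on average, log2 scale) and all 8 below it in 24M replicate 2 (-0.17). Among the 28 pairs, Pearson's r over the 16 samples was highest for Cacna1c with Cacna1h (0.813), Cacna1b with Cacna1h (0.811) and Cacna1g with Cacna1i (0.782), and lowest for Cacna1e with Cacna1i (-0.162). For Cacna1d with Cacna1i it was -0.101. Centring within library type leaves the age difference in these values. Points of one sample share its library and depth, and these values are descriptions.

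Among 14890 other genes, those most like a member in log2 CPM over the same samples reached r = 0.947 for Cacna1d (Zfp445, then Trank1 with 0.930 and Tet2 with 0.930). For Cacna1e they were Lrrc7 (0.923), which encodes a postsynaptic scaffold protein, Pclo (0.921), the gene of the presynaptic protein Piccolo, and Cntnap5c (0.910). For Cacna1i they were Lrfn4 (0.923), Adgrb1 (0.919) and Rusc2 (0.915). The first gene stayed first for 2 of the 8 members with Spearman's rank correlation.

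Of the 16 auxiliary subunit genes 15 were tested, and 0 were called at either age. Short of the fold threshold, 6 of 15 reached an adjusted p of at most 0.05 at 24M, against 5.58% of all genes tested, 5 of them lower (Cacng3, Cacna2d3, Cacng4, Cacna2d2 and Cacng7) and 1 higher (Cacna2d1). All 4 of the beta subunit genes, whose products bind the alpha subunit inside the cell and help bring it to the membrane, had an adjusted p above 0.05 at both ages. The list's median log2 fold change was -0.20 at 24M, with 12 of 15 below 0 against 50.8% of all genes, and -0.0064 at 29M, with 8 of 15 below 0 against 50.6%. Cacna2d1 and Cacng4 stand in the study's own gene lists from these samples, so the list was not written independently of their direction. At 29M 0 of the 15 reached an adjusted p of at most 0.05, and the lowest p belonged to Cacna2d3 and Cacna2d2.

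The alpha2delta genes encode extracellular subunits that raise the surface density of Cav1 and Cav2 channels, and Cacna2d1 and Cacna2d2 encode the binding sites of gabapentin. Cacna2d1 was counted at 194, 260, 239, 219 and 282 CPM in the 3M single-end samples and at 304, 312, 352, 272 and 283 CPM at 24M. A single 3M sample, replicate 5, lay within the 24M range (log2 fold change 0.35, SE 0.094, adjusted p = 0.0465). With offsets for GC content and length its log2 fold change was 0.20. Cacna2d3 was counted at 141, 127, 146, 137 and 120 CPM at 3M and at 118, 112, 115, 116 and 115 CPM at 24M. These groups did not overlap, as for 6.57% of all genes tested at 24M (log2 fold change -0.22, SE 0.055, adjusted p = 0.0363). Cacna2d2 differed by -0.44 on the log2 scale at 24M (adjusted p = 0.0487) and by -0.36 at 29M (adjusted p = 0.155), and Cacna2d3 by -0.16 at 29M (adjusted p = 0.139). At 29M Cacna2d1 differed by 0.0087 (adjusted p = 0.949).

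The gamma genes named here encode regulators of AMPA receptors rather than fixed parts of neuronal calcium channels. Cacng3 was counted at 81.1, 76.8, 70.6, 77.1 and 73.0 CPM in the 3M single-end samples and at 64.7, 62.6, 61.0, 63.0 and 63.6 CPM at 24M. The groups did not overlap, as for 6.57% of all genes tested (log2 fold change -0.27, SE 0.049, adjusted p = 0.0121). At 29M Cacng3 was counted at 62.8 to 66.8 CPM against 62.4 to 68.5 CPM at 3M (log2 fold change 0.0037, adjusted p = 0.982). Cacng4 differed by -0.37 (adjusted p = 0.0402) and Cacng7 by -0.20 (adjusted p = 0.0487) at 24M. Of these 6 auxiliary genes, Cacng3 kept an adjusted p of at most 0.05 with any 1 library left out. Its adjusted p was 0.135 with the replicate number as a block and 0.0871 with that block and the GC and length offsets. The other 5 genes each kept an adjusted p of at most 0.05 in 3 or 4 of the 11 fits that left out 1 library. All 5 lost it without 3M replicate 1 or 4 or 24M replicate 2, 3 or 6 (0.0589 to 0.125). With the replicate number as a block, these 5 were also above 0.05 (0.105 to 0.299). Without 3M replicate 4, the sample with the high striatal and neocortical markers, the log2 fold change was 0.32 for Cacna2d1, -0.38 for Cacna2d2, -0.21 for Cacna2d3, -0.29 for Cacng4 and -0.18 for Cacng7.

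**Figure D5:**
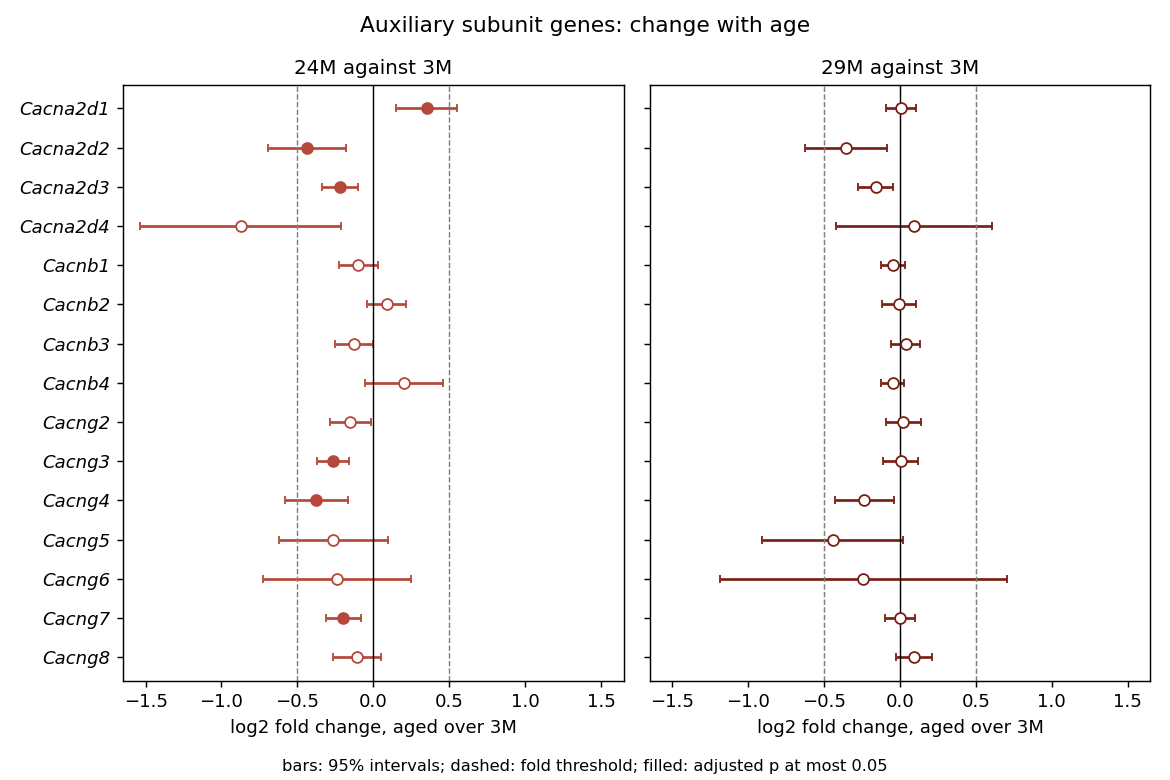
Log2 fold change with its 95% interval for the 15 tested auxiliary subunit genes, 24M against 3M (left) and 29M against 3M (right); filled points have an adjusted p of at most 0.05 and dashed lines mark the fold threshold of 0.5. At 24M 6 points are filled, Cacna2d1 to the right of 0 and 5 to the left, and at 29M none is.

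Among 22 channel partners and regulators, 20 of them tested, 1 gene, Stx1a, was called at 24M and 0 at 29M, against 1.98% and 1.45% of all genes. Stx1a encodes syntaxin 1A, the release protein that binds N- and P/Q-type channels, and fell from 121 ± 17.4 CPM (SD, n = 5) to 85.5 ± 8.11 CPM (n = 5), with a log2 fold change of -0.50 (SE 0.095, adjusted p = 0.0136). Its fold lay at the threshold, and the call was lost without 3M replicate 1 (-0.499), 2 (-0.486) or 4 (-0.430) and without 24M replicate 1 (-0.491) or 3 (-0.449). It was also lost with the GC and length offsets (-0.43) and with the merged 24M libraries kept apart (-0.49). The zero-centred prior of DESeq2 lost it too (-0.44). So did the replicate number as a block (-0.45, adjusted p = 0.0609) and that block with the offsets (-0.38). The call held under 12 of 22 alternatives. Leaving out 24M replicate 1 kept replicate 4 in its place, and with both left out the call held (-0.52). At 29M the log2 fold change of Stx1a was -0.079 (adjusted p = 0.435) and the groups overlapped. At any fold change, 2 of the 20 tested genes, Stx1a among them, were lower and 1 higher at 24M with an adjusted p of at most 0.05. The share over all genes tested was 5.58%. At 29M 0 of the 20 reached it. Over the 20 tested genes of this list the median log2 fold change was -0.023 for 24M and -0.045 for 29M.

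Among 21 genes of calcium handling downstream of the channels, all tested, 1 gene, Atp2b4, was called at 24M and 0 at 29M, again beside 1.98% and 1.45% of all genes. Atp2b4 encodes a plasma membrane calcium pump and fell from 235 ± 34.3 CPM (SD, n = 5) to 158 ± 24.6 CPM (n = 5) at 24M (log2 fold change -0.58, SE 0.113, adjusted p = 0.0162). The call held under 18 of 22 alternatives. It was lost without 24M replicate 2 (log2 fold change -0.55, adjusted p = 0.0538) and with the zero-centred prior of DESeq2 (-0.48). It was also lost with the replicate number as a block (adjusted p = 0.0713) and with that block and the GC and length offsets (adjusted p = 0.0508). At 29M Atp2b4 was counted at 142 to 163 CPM against 191 to 198 CPM at 3M (-0.36, SE 0.045, adjusted p = 0.000732). These groups did not overlap, as for 22.4% of all genes tested at 29M. The adjusted p of Atp2b4 at 29M was at most 0.05 under 14 of 15 alternatives, and 0.313 with all 4 groups in 1 fit. Ryr1, which encodes a calcium release channel of the endoplasmic reticulum, differed by 0.37 at 29M (17.1 to 18.6 CPM at 3M, 20.3 to 25.0 CPM at 29M, adjusted p = 0.0427), and by less than the fold threshold. That adjusted p stayed at or below 0.05 under 5 of 15 alternatives, among them 1 of the 6 that leave out a library. It was 0.111 with DESeq2 and 0.518 with all 4 groups in 1 fit, and at 24M Ryr1 differed by 0.0016 (adjusted p = 0.997). At any fold change, 3 of the 21 genes were lower and 0 higher at 24M with an adjusted p of at most 0.05, against 5.58% of all genes. At 29M 1 was lower and 1 higher, against 2.99%. The list's median was -0.041 at 24M and -0.049 at 29M.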

How the data were processed

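Per the submitters' processing notes, reads were aligned with STAR 2.3.0 to GRCm38.p2 and counted with HTSeq. The authors deposited raw counts per gene, 1 file per library, and analysed them with DESeq2. The annotation and strand setting of the counting are not given in the sources used here, so antisense overlaps may be shared. Lines for reads on no feature (8.59% to 15.87%), ambiguous or not unique name no gene and were left out. Of 38355 identifiers 36602 were named from GENCODE vM21, which also gave loci, lengths and GC content.

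Counts were tested with edgeR 4.0.16 in R 4.3.3 (quasi-likelihood test, TMM, default filter on low counts, Benjamini-Hochberg over all genes tested), within each library type. A gene was called as in the study, with an adjusted p no higher than 0.05 and a log2 fold change of 0.5 or more in either direction. CPM are TMM-scaled, intervals are 95%, standard errors were taken from the F statistic, and correlations used log2 of CPM plus 0.5. The steps were tested on simulated data.

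The members, the gene lists and the rule for named genes were chosen with earlier results of these data known. Each alpha subunit gene is named, and of each list every called gene or else the 2 with the smallest p. For the channel partners at 29M, the genes this rule names are not reported here. Genes named because they are few at an adjusted p of at most 0.05 (Cacna2d1, Cacna2d2, Cacng4 and Cacng7) were picked after their values were seen. For likeness, the 3 members with the highest correlation were named with 3 genes each. Markers of dissected and neighbouring tissue were summed per sample. Of 15 marker lists, those with called genes were neocortex (3 lower), microglia (1 higher), astrocytes (1 higher), oligodendrocyte precursors (1 lower) and endothelium (1 lower) at 24M. At 29M these were microglia (1 higher), astrocytes (1 higher), striatum (1 lower) and oligodendrocyte precursors (1 lower).

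Alternatives were DESeq2 1.42.0 with and without a zero-centred prior, its size factors in edgeR, no filter, at least 1 CPM, all 4 groups in 1 fit, and the replicate number as a block. The rest were loess offsets (span 0.3) for GC content and exon length, that block with these offsets, no fold threshold, the 24M pair kept apart or left out, and each library left out.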

Additional observations from a re-analysis of the deposited data

Results flagged for a closer look

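With 5 samples a group, a single sample was flagged where its gap to the nearest other sample was too large a part of the range of the group by Dixon's 95% critical value. Over 22 groups tested, chance gives about 1.1 such flags. In the 3M single-end group, replicate 1 lay above the other samples for Cacna1a (211 CPM against 190 CPM in the next sample, gap 0.792 of the range). In the same group, replicate 5 lay below the others for Cacna1i (87.1 CPM against 106 CPM, gap 0.711) and for the share of the Cav3 genes in the summed level (31.5% against 34.0%, gap 0.743). The last 2 flags are not independent, since Cacna1i is part of that share. Groups of 3 samples were not examined in this way.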

How the results depend on the processing

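No alternative called any of the 8 alpha subunit genes at either age. The counts over all genes moved more. At 24M they were 119 with DESeq2 and a zero-centred prior, 518 with all 4 groups in 1 fit, 163 without 24M replicates 1 and 4, and 875 without the fold threshold. At 29M they were 24 with that prior, 441 without a filter, 86 with all 4 groups and 451 without the fold threshold. The count for the difference between ages was 1 with DESeq2. Leaving out 1 library gave from 119 calls (24M replicate 2 left out) to 568 (3M single-end replicate 5 left out) at 24M, 124 (without 29M replicate 3) to 221 at 29M, and 0 to 92 (without 3M single-end replicate 5) for the difference. The 3 gene lists together held 2 calls at 24M. That count was 0 with the prior, 1 with GC and length offsets, 1 with the 24M libraries kept apart, 12 without the fold threshold and 1 to 3 with 1 library left out. At 29M it was 2 without the fold threshold and 0 to 1 with 1 library left out (Calb2 without 3M paired-end replicate 1, Itpr3 without 29M replicate 2). Replicate numbers did not pair the samples: correlations of same-numbered samples ran from -0.24 to 0.049 at 24M, where 0 of 5 were best with their own number, and from -0.16 to 0.20 at 29M (1 of 3). With the replicate number as a block, 83 genes were called at 24M, 0 in the lists, and Cacna1e was -0.027; with the block and the offsets together these were 128, 0 and -0.0022. Signs turned for small values. With the offsets, Cacna1c was 0.0067 and Cacna1h 0.11 at 24M, Cacna1a -0.0056, Cacna1b -0.017 and Cacna1i -0.041 at 29M, and the difference for Cacna1h -0.088. These offsets also moved the median log2 fold change over all genes tested, from -0.0021 to -0.0325 at 29M and from -0.0032 to -0.0109 at 24M. With block and offsets, Cacna1h was 0.086 at 24M, Cacna1a -0.0052, Cacna1b -0.017 and Cacna1i -0.043 at 29M, and the difference for Cacna1h -0.065. With all 4 groups Cacna1i was -0.0014 at 29M. Leaving out 1 library gave, at 24M, -0.079 to 0.019 for Cacna1c, -0.023 to 0.094 for Cacna1d, -0.037 to 0.066 for Cacna1e and -0.065 to 0.0135 for Cacna1h. At 29M it gave -0.0033 to 0.089 for Cacna1a, -0.0265 to 0.045 for Cacna1b and -0.049 to 0.062 for Cacna1i, and -0.081 to 0.015 for the difference of Cacna1c. The cause was not tested. With the longest transcript as length 4 genes changed rank, and the first gene most like a member stayed first for 2 of 8 with Spearman's correlation and 1 of 8 with single-end samples centred within age. The prior was not run for the difference, which already uses all 4 groups. Depth limits Cacna1s and Cacna1f, which had too few counts for a close estimate.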
